A study of Mus musculus with 8 samples.

Results

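The lysosomal genes described here are 43 genes that encode the proton pump of the lysosome, its hydrolases for glycans and lipids, its membrane proteins and a pair of transcription factors that act on such genes. They were chosen by their symbols among the 51810 genes of the count table, with no measured value used: 9 belong to the proton pump, 13 to the glycan hydrolases, 8 to the lipid hydrolases and their activator, 9 to the membrane proteins, 2 to other soluble proteins (Grn and Tpp1) and 2 to the transcription factors (Tfeb and Tfe3). The RNA came from microglia of wild-type mice aged 4 or 21 months, taken from white matter or from grey matter, and each of the 4 groups has 2 libraries. Cells were taken from a suspension freed of myelin on a Percoll gradient, with magnetic beads for CD11b, a surface protein of microglia that other myeloid cells also carry. Libraries of polyadenylated RNA were run on an Ion Proton sequencer. White matter means the corpus callosum, and the region label of the grey matter libraries also reads corpus callosum, so white and grey are told apart here by title and tissue label alone. No source used here states whether a group's 2 libraries are from different animals, so every p-value below measures the spread between libraries, which may be technical. No group carries a transgene or a treatment by its label.

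Lysosomes take in material from endocytosis, phagocytosis and autophagy and break it down at low pH. The vacuolar ATPase pumps protons into the lumen with a membrane sector and a catalytic sector outside the membrane, the hydrolases in the lumen need that acid, and glycosylated membrane proteins line and protect the wall. In microglia of white matter, this pathway handles myelin debris, whose galactolipids and sulfatides are degraded by the products of Galc and Arsa with the help of saposins made from Psap. Tfeb and Tfe3 encode basic helix-loop-helix factors that bind a palindromic motif, known as the CLEAR element, near the start of many lysosomal genes.

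Library totals ran from 3273258 to 6315782 counts, and the 43 genes together took 0.599% to 1.48% of them. Levels are in CPM, counts scaled to a common library size with TMM, which adjusts each total for differences in composition; they are compared within a gene and not between genes. All 12 microglia markers were detected in every library. A single library, the first of 4-month white matter, stood apart. Its sum over 12 oligodendrocyte markers was 65384 CPM, where the other 7 libraries had 201 to 823; its sum over the microglia markers was 3485 CPM, where they had 13624.5 to 20959. Across genes, it correlated with no other library above 0.757. Of the 43 genes, 39 had a mean of more than 100 counts per library, and 2 fell under 10 counts in a library. Exons of 14 of them overlap another gene in the GENCODE M21 annotation, on the opposite strand except for Glb1. They are Arsa, Arsb, Atp6v0b, Atp6v1h, Cln3, Galc, Glb1, Grn, Hexa, Idua, Lamp1, Npc1, Ppt1 and Sgsh. No source used here says whether counting used strand, so their counts may hold reads of a neighbour.

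Promoter windows from RefSeq (GRCm38.p6) were found for 37 of the 43 genes, each of 300 bases around the annotated start. The 7 letters TCACGTG, the core of the CLEAR element, searched on both strands, stood in the windows of 12 of these 37 genes (32.4%) and in 4.29% of the 27025 genes with an entry. Every such match holds the 6 letters CACGTG, which were present in 32.4% of the members with a window and in 8.09% of all genes. The full CLEAR palindrome of 10 letters occurred in 1 member, Cln3, and in 0.37% of all genes. The related letters TCATGTG were found in 6 members (16.2%) against 4.31% of all genes. By role, TCACGTG was found in 3 of 6 proton pump genes, 4 of 12 glycan hydrolases, 2 of 7 lipid genes and 3 of 8 membrane protein genes, and in none of Grn, Tpp1, Tfeb and Tfe3. A match is a description of these letters and not a site of binding.

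The windows of 5 genes are printed 5′ to 3′ along the gene, with TCACGTG or its reverse complement in capitals. They show the motif in members that were high, and in 1 that was low, in white matter at 21 months. These 5 were picked after the values were seen and do not stand for all members with the motif. Values of the members with and without it are given further on. Gla lies on the minus strand at chrX:134600956-134601255, Glb1 on the plus strand at chr9:114400828-114401127, Lamp1 on the plus strand at chr8:13158911-13159210, Atp6v1a on the minus strand at chr16:44139210-44139509 and Atp6v0b on the minus strand at chr4:117887280-117887579.
Gla: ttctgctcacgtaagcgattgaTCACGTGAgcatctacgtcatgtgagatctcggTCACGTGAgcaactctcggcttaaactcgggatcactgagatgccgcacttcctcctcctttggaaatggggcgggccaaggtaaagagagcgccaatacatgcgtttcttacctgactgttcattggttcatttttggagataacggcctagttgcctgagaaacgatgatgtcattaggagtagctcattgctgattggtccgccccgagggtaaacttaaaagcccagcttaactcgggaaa
Glb1: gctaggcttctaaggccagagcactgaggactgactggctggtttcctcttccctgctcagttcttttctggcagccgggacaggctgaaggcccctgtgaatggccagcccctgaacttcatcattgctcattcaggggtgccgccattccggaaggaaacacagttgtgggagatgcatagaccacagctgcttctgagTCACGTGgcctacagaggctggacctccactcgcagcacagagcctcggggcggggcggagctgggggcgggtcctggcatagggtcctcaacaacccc
Lamp1: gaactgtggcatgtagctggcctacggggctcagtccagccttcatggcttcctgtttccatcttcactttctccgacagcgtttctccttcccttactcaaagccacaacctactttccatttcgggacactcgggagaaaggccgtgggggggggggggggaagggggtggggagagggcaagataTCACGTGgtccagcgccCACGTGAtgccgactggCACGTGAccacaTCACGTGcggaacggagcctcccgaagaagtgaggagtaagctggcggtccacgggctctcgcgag
Atp6v1a: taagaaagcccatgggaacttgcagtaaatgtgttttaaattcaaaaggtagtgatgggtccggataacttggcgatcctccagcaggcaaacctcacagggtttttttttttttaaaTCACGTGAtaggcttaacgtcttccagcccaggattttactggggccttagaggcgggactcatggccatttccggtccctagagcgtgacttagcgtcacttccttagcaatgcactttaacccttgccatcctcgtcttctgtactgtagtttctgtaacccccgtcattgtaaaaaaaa
Atp6v0b: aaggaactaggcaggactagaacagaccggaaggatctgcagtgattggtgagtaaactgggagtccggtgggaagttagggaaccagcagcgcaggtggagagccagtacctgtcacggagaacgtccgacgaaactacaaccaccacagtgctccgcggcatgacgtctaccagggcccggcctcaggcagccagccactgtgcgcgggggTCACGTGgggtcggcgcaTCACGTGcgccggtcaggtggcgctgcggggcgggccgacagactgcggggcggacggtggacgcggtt
CACGTG was present at 4 places in the Lamp1 window, the most of any member, at 2 places in those of Gla and Atp6v0b, and at 1 place in those of Glb1 and Atp6v1a. Where the capitals read TCACGTGA, the 7 letters match on both strands at the same place.

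At 21 months, most lysosomal genes were at higher levels in white than in grey matter, but by small steps. The only call was Atp6v0d2, a form of the pump's d subunit known from osteoclasts and macrophages, which rested on few counts, entered the test only through its level in white matter, and was lost when any 1 of the 4 libraries was left out and with 8 or 7 libraries. Of the 43 genes, 35 had a log2 fold change above 0 (50.8% of all 14717 genes tested did), and their median was 0.25, against 0.0066 over all genes. The test was edgeR's quasi-likelihood test on these 4 libraries with Benjamini-Hochberg adjustment over all genes tested, and a gene was called at an adjusted p under 0.05. It called 1 of 43 members higher and 0 lower, where it called 0.985% of all genes higher and 0.591% lower, so the number of calls does not set the members apart. At an unadjusted p under 0.05 stood 18 members, all higher in white matter, against 11.4% of all genes in either direction. In 27 members both white matter libraries lay above both grey matter libraries (21.2% of all genes), and in 1, Atp6v0b, both lay below (19.6% of all genes). Without the 14 genes that overlap a neighbour, 25 of 29 members lay above 0, with a median of 0.37. In bulk RNA, fewer cells of a type and less RNA per cell cannot be told apart.

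**Figure D1:**
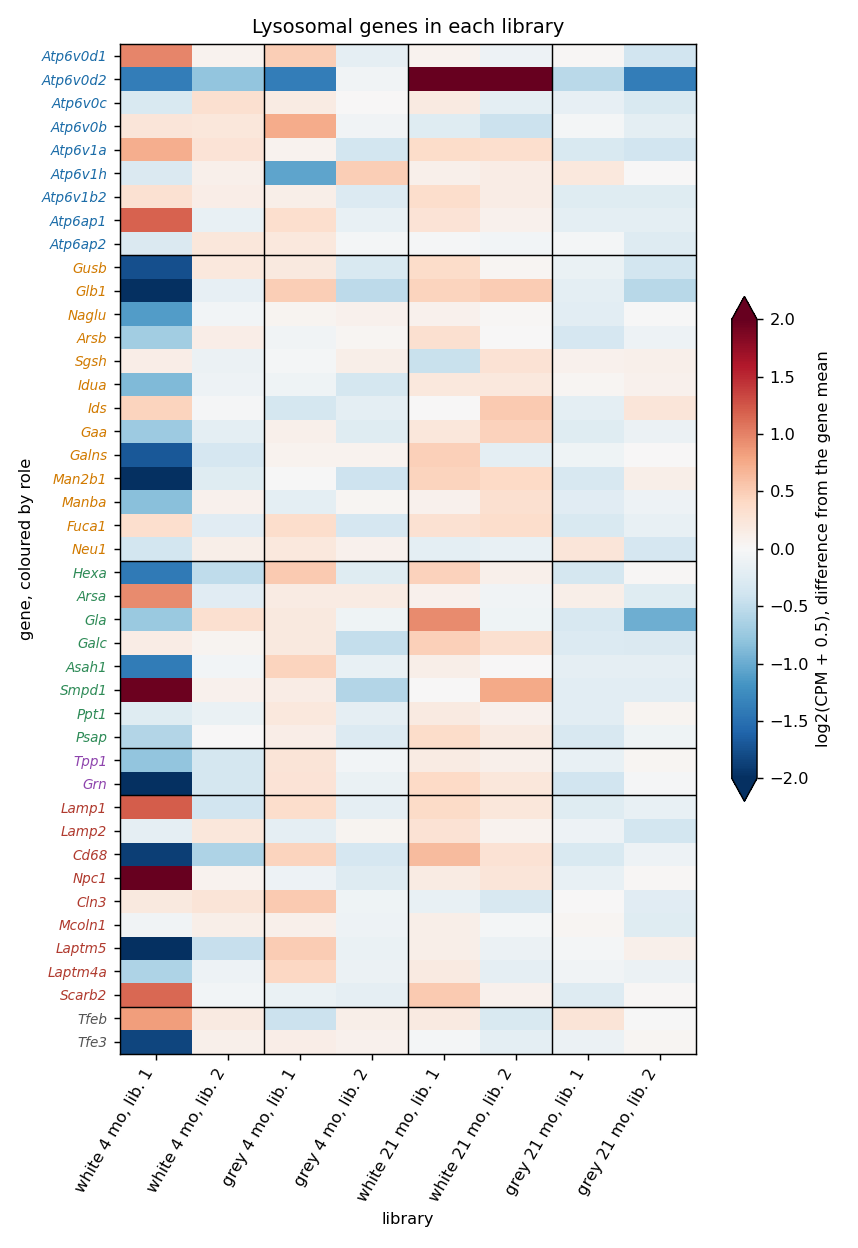
Level of each of the 43 genes (rows, names coloured by role) in each of the 8 libraries (columns). Shown is the difference of log2(CPM + 0.5) from the gene's mean over 7 libraries, without the first 4-month white matter library. The colour scale ends at 2 in either direction. The 21-month white matter columns are mostly red and the 21-month grey matter columns mostly blue, while the first 4-month white matter column holds the strongest shades in both directions.

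**Figure D2:**
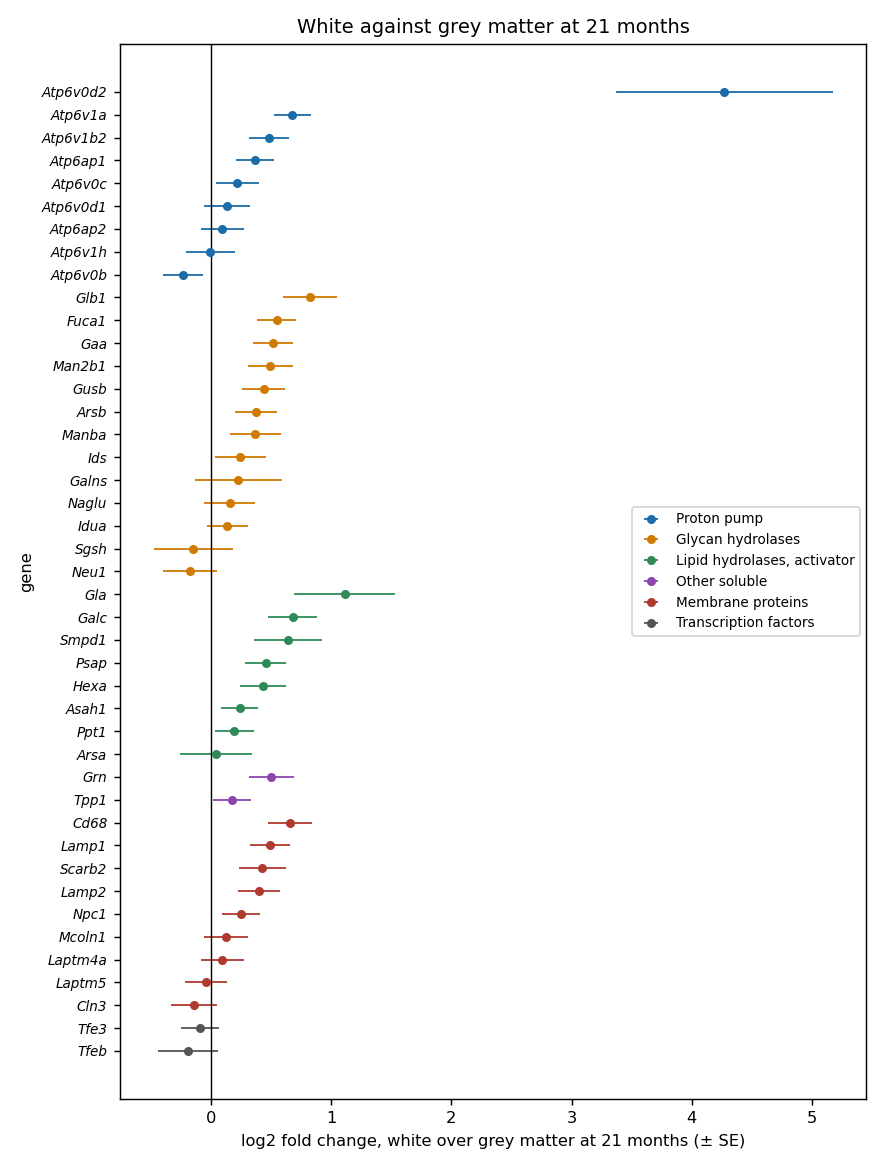
Log2 fold change of white over grey matter at 21 months for each of the 43 genes, with bars of 1 standard error from edgeR's fit of 4 libraries and colours for role. Of the 43 points, 35 lie right of 0, and Atp6v0d2 at 4.27 is the only one called.

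Among the proton pump genes, Atp6v0d2 was nearly absent outside old white matter. At 21 months it read 4.97 and 4.97 CPM in white matter against 0.396 and 0 in grey matter; at 4 months it read 0 and 0.251 CPM against 0 and 0.731. These levels rest on 41 counts for white and 2 for grey matter at 21 months, and on 1 and 4 counts at 4 months. The white-to-grey ratio at 21 months was 21.4, with a 95% Clopper-Pearson interval of 5.57 to 183 that covers counting error only. Its fitted log2 fold change was 4.27 ± 0.90 (SE, n = 2 libraries per group), with an adjusted p of 0.0472 in edgeR. The gene entered the test only through its level in white matter, and its fitted value depends on the prior count. The call was lost when the other groups set the spread: the adjusted p was 1.00 with all 8 libraries, 0.648 with 7, and 0.305 in limma on the deposited normalised values. It was also lost without any 1 of the 4 libraries (adjusted p = 0.137 to 0.205 in edgeR).

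The sister subunit gene Atp6v0d1, the widely expressed form, did not share that pattern, with 87.7 and 78.5 CPM in white and 85.4 and 64.2 in grey matter at 21 months. Those groups overlapped, and the log2 fold change was 0.14 ± 0.19. Atp6v1a, the catalytic subunit, read 205 and 201 CPM in white and 129 and 123 in grey matter. It was higher in both white matter libraries, by 0.68 ± 0.16 on the log2 scale, and missed the threshold (edgeR adjusted p = 0.0683); DESeq2, which called 2 members and 2.13% of all genes, called it (adjusted p = 0.0483). Atp6v0b, a proteolipid subunit of the membrane sector, was the only member lower in both white matter libraries, at 124 and 109 CPM against 143 and 129 (log2 fold change -0.23 ± 0.17, edgeR adjusted p = 0.698). The other 5 pump genes ranged from -0.0032 (Atp6v1h) to 0.49 (Atp6v1b2). Without Atp6v0d2, 6 of 8 pump genes lay above 0, with a median of 0.18.

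The glycan hydrolases lay above 0 in 11 of 13 genes, with a median of 0.37, and in 9 of 13 both white matter libraries were the higher (21.2% of all genes). None was called (0.985% of all genes higher), and 5 had an unadjusted p under 0.05 (11.4% of all genes). Glb1, the beta-galactosidase that acts on keratan sulfate and on ganglioside, had the highest value of the role: 41.6 and 43.5 CPM in white against 26.7 and 20.7 in grey matter. The groups did not overlap, and the log2 fold change was 0.83 ± 0.23 (edgeR adjusted p = 0.134). At the other end stood Neu1, a sialidase, with 45.9 and 47.2 CPM in white against 62.0 and 41.6 in grey matter. Here the groups overlapped (log2 fold change -0.17 ± 0.22). The other 11 ranged from -0.15 for Sgsh, a heparan sulfate sulfamidase, to 0.55 for Fuca1, a fucosidase, with edgeR adjusted p-values from 0.171 to 0.938.

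All 8 lipid hydrolase and activator genes lay above 0, with a median of 0.45. Both white matter libraries were the higher in 7 of the 8 (21.2% of all genes), and 5 had an unadjusted p under 0.05 (11.4% of all genes), but none was called. Gla, the alpha-galactosidase that removes the terminal sugar of globosides, read 93.9 and 45.7 CPM in white and 39.0 and 24.6 in grey matter. Both white matter libraries were higher, but they also lay far from each other, and the log2 fold change was 1.12 ± 0.42 (edgeR adjusted p = 0.410). Its size rested on single libraries: it was 0.48 without the first white matter library and 1.54 without the second, where edgeR called it (adjusted p = 0.00684). Galc, the galactosylceramidase of myelin lipid, read 50.6 and 45.7 CPM against 30.1 and 29.6, with no overlap (0.68 ± 0.20, edgeR adjusted p = 0.171).

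Psap, the precursor of the saposins, stood at 1352 and 1189.7 CPM in white and 846 and 997 in grey matter, again without overlap (0.46 ± 0.17, edgeR adjusted p = 0.323). Hexa, the alpha subunit of beta-hexosaminidase, stood at 453 and 354 CPM against 257 and 335, which do not overlap but come close (0.44 ± 0.19, edgeR adjusted p = 0.419). Arsa, the sulfatidase, was the lowest of the role and the one whose libraries overlapped: 16.8 and 15.1 CPM in white against 17.2 and 13.4 in grey matter (0.04 ± 0.30). So the enzyme genes for the main myelin galactolipids differed in their values, Galc being separated between regions and Arsa not. The difference between the 2 genes was not tested, and exons of both overlap another gene. The other 3 lipid genes ranged from 0.20 for Ppt1, a palmitoyl thioesterase, to 0.64 for Smpd1, the acid sphingomyelinase.

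Of the other soluble proteins, Grn, the progranulin precursor, read 1713 and 1513 CPM in white and 989.8 and 1273 in grey matter at 21 months. Those libraries did not overlap (0.50 ± 0.18, edgeR adjusted p = 0.30). Tpp1, a tripeptidyl peptidase, read 351 and 336 CPM against 281 and 323, a smaller step of 0.18 ± 0.16, also with no overlap.

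The membrane proteins lay above 0 in 7 of 9 genes, with a median of 0.25 and no call. Cd68, a heavily glycosylated protein of macrophage lysosomes that is widely used as a marker of phagocytic microglia, had the largest value: 836 and 655 CPM in white against 436 and 502 in grey matter. The groups did not overlap (0.66 ± 0.18, edgeR adjusted p = 0.133), and DESeq2 called it (adjusted p = 0.0464). Lamp1, a main structural protein of the lysosomal wall, read 1065 and 951 CPM against 691 and 732 (0.49 ± 0.16, edgeR adjusted p = 0.242). Npc1, which exports cholesterol from the lysosome, read 260.2 and 273 CPM against 208 and 236, without overlap and with a small step (0.25 ± 0.16).

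Lamp2, another main protein of the lysosomal wall, read 680 and 582 CPM in white against 516 and 432 in grey matter (0.40 ± 0.18, edgeR adjusted p = 0.415), and Scarb2, the receptor that carries glucocerebrosidase to the lysosome, 761 and 561 against 440 and 538 (0.43 ± 0.20, edgeR adjusted p = 0.446). Neither overlapped, so libraries were separated in 5 of the 9 membrane protein genes, against 21.2% of all genes. Laptm5, a transmembrane protein of blood cell lineages, read 2472 and 2112.5 CPM in white and 2225 and 2458 in grey matter, which overlap (-0.04 ± 0.18). Cln3, mutated in a juvenile form of Batten disease, read 57.2 and 50.7 CPM against 63.6 and 54.1, which also overlap (-0.14 ± 0.19). The libraries of Mcoln1 (0.12) and Laptm4a (0.10) overlapped as well.

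The transcription factor genes did not follow the hydrolases. Tfeb read 34.1 and 24.3 CPM in white and 36.0 and 29.9 in grey matter (-0.19 ± 0.25), and Tfe3 read 171 and 154 against 162 and 182 (-0.09 ± 0.16). Both pairs overlapped. RNA levels do not report on the location of these proteins, which was not measured. The 12 members with TCACGTG in the window had a median log2 fold change of 0.15 at 21 months, with 9 of 12 above 0, and the 25 members with a window without it had 0.37, with 21 of 25 above 0.

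Other marker lists moved with the same contrast, in which 0.985% of all genes were called higher and 0.591% lower, and their part in these values was not tested. Summed levels of 12 neutrophil markers were 327 and 84.7 CPM in 21-month white matter against 2389 and 2078 in grey matter, with 12 of 12 lower and 5 called. The monocyte markers summed to 409 to 616 against 726 to 989 CPM (12 of 12 lower, 5 called), and the border-associated macrophage markers to 209 to 275 against 485 to 511 CPM (8 of 10 tested lower, 2 called). No marker of these 3 lists was at 0 in a whole group. The microglia markers summed to 13624 and 13782 CPM in white and 13721 and 16467 in grey matter. A list of disease-associated microglia genes shares no gene with the members described here. That list summed to 6668 and 4886 CPM against 583 and 522, with 10 of 10 higher and 9 called. The choroid plexus and ependymal markers summed to 392 and 11870 CPM in the white matter libraries and 472 and 366 in the grey, so the 2 white matter libraries differed from each other; Ccdc153 and Tmem212 were at 0 in both grey matter libraries.

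Of the genes of the pathway outside the 43, edgeR called 3 higher and 0 lower at 21 months, where it called 0.985% and 0.591% of all genes. Lipa, the lysosomal acid lipase, was higher in white matter with 169 and 144 CPM against 74.9 and 83.2 (0.98 ± 0.17, adjusted p = 0.0183). Gnptab, a subunit of the transferase that starts the mannose-6-phosphate tag on hydrolases, was higher with 78.3 and 75.7 CPM against 36.8 and 40.8 (0.98 ± 0.18, adjusted p = 0.0238). Igf2r, a receptor that carries tagged hydrolases to the lysosome, was higher with 39.3 and 53.9 CPM against 22.6 and 17.9 (1.18 ± 0.25, adjusted p = 0.0457). These are 1 of 18 tested genes of the list of other hydrolases and cofactors (14 above 0, 5 at an unadjusted p under 0.05) and 2 of 8 of the list for delivery and maturation (6 above 0, 3 at an unadjusted p under 0.05); both white matter libraries exceeded both grey matter libraries in each of the 3. No gene was called among 10 other pump genes (8 above 0), 16 other membrane protein genes (9 above 0) and 11 genes of related factors and nutrient sensing (6 above 0), which held 1, 1 and 2 genes at an unadjusted p under 0.05. Over all genes 50.8% lay above 0 and 11.4% had an unadjusted p under 0.05, so the counts of the last 2 lists lie near the background. In the fits of all 8 and of 7 libraries, none of the 3 genes was called.

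The 4-month white matter libraries disagreed with each other on the lysosomal genes, which bears on each comparison that uses them. In the library that stood apart, 6 members were more than 1 log2 unit above the other library of the group, and 11 were more than 1 unit below. These shares, 14.0% and 25.6% of members, compare with 23.5% and 30.9% of the 16237 genes tested over all libraries. Npc1 (979 against 244 CPM), Smpd1, Lamp1 (1878 against 622 CPM), Atp6ap1, Scarb2 and Arsa (30.9 against 13.5 CPM) were the 6 that were higher. Man2b1, an alpha-mannosidase, was the furthest below, at -2.17 on the log2 scale, and Grn read 281 against 1012 CPM. No glycan hydrolase was among the 6, and 5 of 13 were among the 11. The ratios compare 1 library with 1 library and have no test. Oligodendrocyte markers were at 65384 CPM in this library, and their part in these ratios was not tested.

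**Figure D3:**
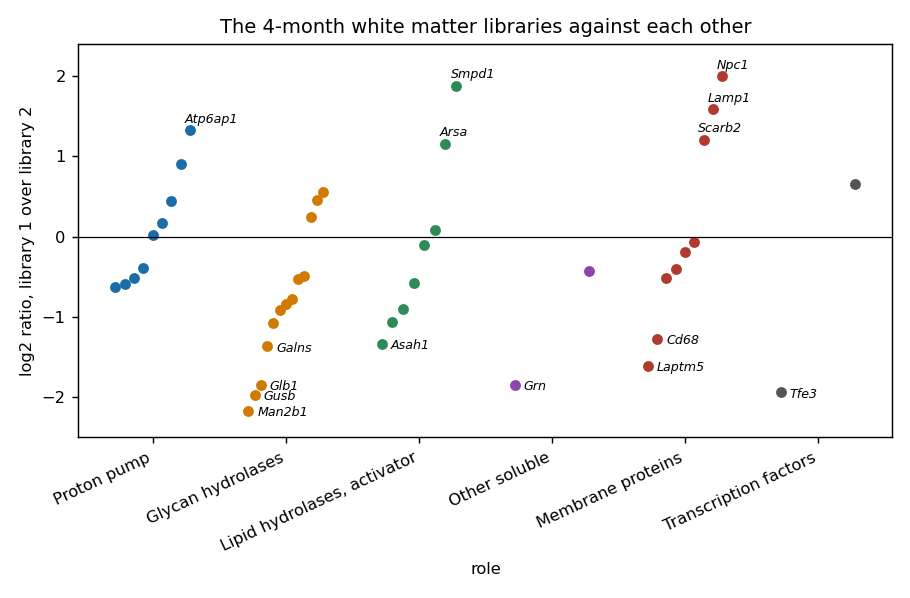
Log2 ratio of the first over the second 4-month white matter library for each of the 43 genes, by role, with the most extreme genes named. Npc1 at 2.00 is the highest and Man2b1 at -2.17 the lowest, and proton pump genes lie between -0.63 and 1.33.

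At 4 months, no lysosomal gene separated white from grey matter by the test. Of the 43, 42 were tested (Atp6v0d2 was too low), and edgeR called 0, as it called 0 of all 14863 genes (0% higher and 0% lower); 0 members had an unadjusted p under 0.05, against 4.31% of all genes. DESeq2 called 0 members (2.47% of all genes), and limma called 0 members and 0 genes. Of the 42, 15 lay above 0 (49.7% of all genes), with a median of -0.17. In the fit of 7 libraries, without the one that stood apart, 21 of 43 did (48.5% of all genes), with a median of -0.019. The libraries did not overlap in 6 members that were higher (13.3% of all genes) and 7 that were lower (15.4% of all genes). The shift seen at 21 months was thus not seen in the 4-month medians of all members. Without Atp6v0d2, the 8 pump genes had a median of 0.13 (4 above 0), or 0.18 (5 above 0) with 7 libraries. At 21 months their median was 0.18. The test of a difference between the ages, the age by region term, is given further on.

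Cd68, Grn and Laptm5 were below 0 at this age. Cd68 read 145 and 349.9 CPM in 4-month white matter and 729 and 426 in grey matter (log2 fold change -1.22 ± 0.81, or -0.70 ± 0.37 without the outlying library). Grn read 281 and 1012 CPM against 1569.7 and 1186 (-1.09 ± 0.95, or -0.42 ± 0.32 without it). Laptm5 read 546 and 1665 CPM against 3259 and 2079.7 (-1.26 ± 0.99, or -0.66 ± 0.36 without it). In each, both white matter libraries were lower, and the first of the grey matter libraries was the highest. Npc1 went the other way, with 979 and 244 CPM against 215 and 193 (1.56 ± 0.89, or 0.27 ± 0.24 without it), so most of its value came from 1 library. None passed the test in edgeR (adjusted p = 1.00 for each with 4 libraries and 0.920 with 7). Marker lists moved with the region at this age too. Microglia markers summed to 3485 and 14186 CPM in white and 20959 and 17161 in grey matter, with both white matter libraries lower in 11 of 12 markers (15.4% of all genes), neutrophil markers to 239 and 577 against 4604 and 2197 (12 of 12), and border-associated macrophage markers to 61.8 and 303 against 698 and 526 (10 of 11 tested). Choroid plexus and ependymal markers summed to 5461 and 7166 CPM against 233 and 30.9, with both white matter libraries higher in 8 of 8 tested (13.3% of all genes). The part of these lists in the values was not tested.

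The other named members at 4 months are given as levels. Atp6v0d1 read 166 and 88.6 CPM in white and 119 and 73.9 in grey matter, Atp6v0b 174 and 171 against 245 and 139.7, and Atp6v1a 263 and 193 against 167 and 124. Only Atp6v1a of these pump genes had both white matter libraries above both grey ones at 4 months, as it had at 21. A further pump gene, Atp6v1b2, did so at both ages, with 124 and 110 CPM against 108 and 82.8 at 4 months. These were 2 of 8 tested pump genes at 4 months, against 13.3% of all genes. Glb1 read 7.27 and 27.3 CPM against 43.3 and 21.0, Neu1 40.3 and 56.9 against 61.0 and 55.8, Gla 29.1 and 61.2 against 56.0 and 46.1, and Galc 40.3 and 37.9 against 41.7 and 26.0. The regions overlapped in all 4 of these hydrolase genes at 4 months.

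Arsa read 30.9 and 13.5 CPM in white and 17.8 and 17.9 in grey matter, Psap 705 and 1056 against 1157 and 869.6, Hexa 124 and 233 against 475 and 278, and Tpp1 181 and 245 against 375 and 303. Hexa and Tpp1 were lower in both white matter libraries. Lamp1 read 1878 and 622 CPM against 1041 and 720.2, and Cln3 72.3 and 75.5 against 91.6 and 59.4. Tfeb read 54.1 and 34.1 CPM against 22.2 and 32.7, with both white matter libraries higher, and Tfe3 49.1 and 189 against 194 and 186.

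With age in white matter, the median of the hydrolase genes lay above 0 and that of the proton pump genes near 0, and no member passed the test. Of 43 members, edgeR called 0 (0% of all 14623 genes in either direction). At an unadjusted p under 0.05 stood 1, Atp6v0d2, against 2.84% of all genes. That gene entered the test only through its level at 21 months. DESeq2 called 0 members (1.91% of all genes), and limma called 0 members and 0 genes. Above 0 lay 28 members (50.6% of all genes), with a median of 0.29. Without Atp6v0d2, 27 of 42 did, with a median of 0.27, and 0 had an unadjusted p under 0.05. In the fit of 7 libraries without the one that stood apart, 32 of 43 lay above 0 (51.9% of all genes), with a median of 0.18. The medians by role in these 2 fits were 0.55 and 0.30 for glycan hydrolases, 0.42 and 0.25 for lipid genes, -0.04 and 0.01 for the pump, 0.01 and 0.11 for membrane proteins, and -0.08 and -0.23 for the transcription factors. Both 21-month libraries exceeded both 4-month libraries in 18 members (19.8% of all genes), among them 7 of 13 glycan and 5 of 8 lipid genes, and lay below in 4 (15.4% of all genes), Atp6v0d1, Atp6v0b, Cln3 and Tfeb. Differences between roles were not tested. Oligodendrocyte markers summed to 342 and 329 CPM at 21 months and to 65384 and 823 at 4 months. The disease-associated microglia genes summed to 6668 and 4886 CPM against 731 and 831, with both old libraries higher in 10 of 10, and the pericyte and smooth muscle markers to 758 and 1406 against 9.81 and 592, higher in 8 of 10. The part of these lists was not tested.

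Atp6v0d2 rested on 41 counts at 21 months and 1 at 4 months in white matter, a ratio of 33.5 (95% Clopper-Pearson interval 5.68 to 1354, counting error only), with an edgeR adjusted p of 0.945. Cd68 stood at 836 and 655 CPM at 21 months against 145 and 349.9 at 4 months. It was higher in both old libraries by 1.59 ± 0.73 on the log2 scale, and by 1.08 ± 0.37 with 7 libraries, in neither case past the threshold (edgeR adjusted p = 0.945 and 1.00). Grn gave 1.32 ± 0.89 and 0.66 ± 0.32 in these 2 fits, and Glb1 gave 1.29 ± 0.73 and 0.62 ± 0.43, each smaller without the library that stood apart. Npc1 turned from -1.21 ± 0.86 to 0.11 ± 0.25 when that library was left out.

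**Figure D4:**
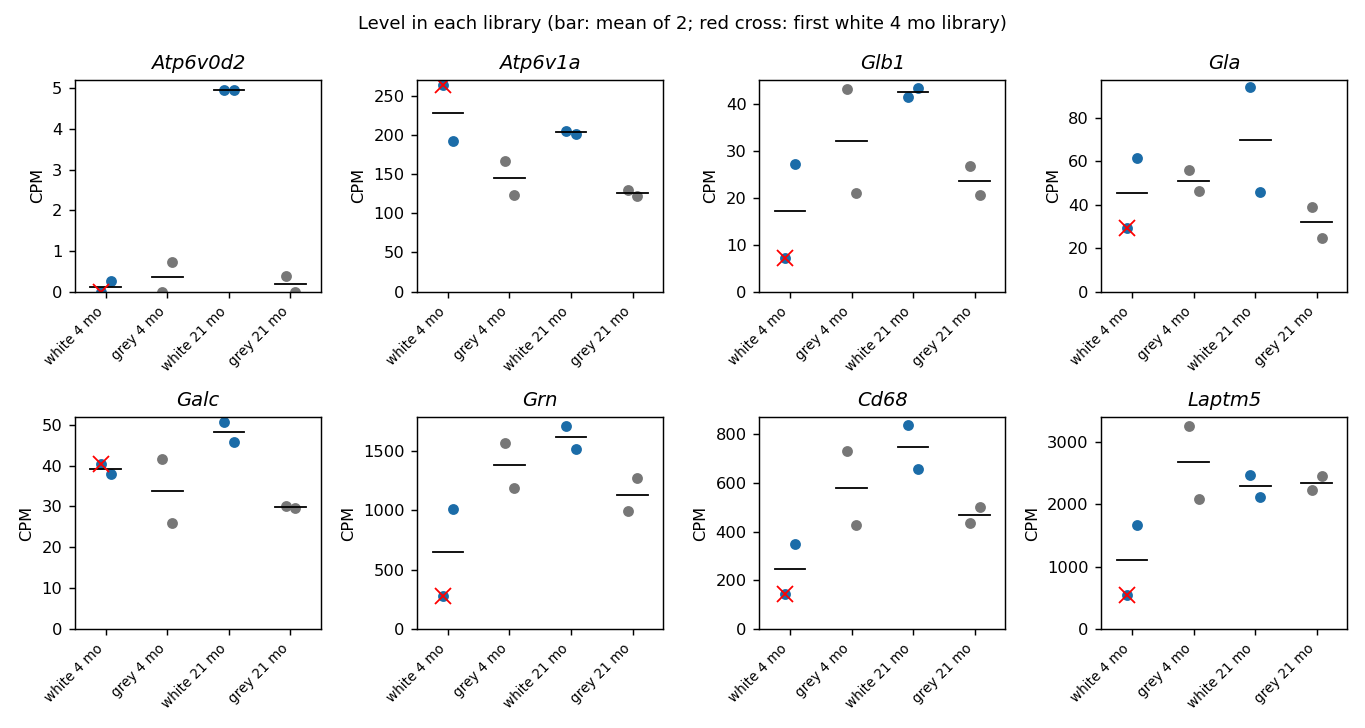
Level in CPM (vertical axes from 0) in each library for 8 genes, by group, with a bar at the mean of 2 and a red cross on the first 4-month white matter library. In Atp6v0d2, Galc, Grn and Cd68 both 21-month white matter libraries lie above all other libraries except 1 of 4-month grey matter for Grn and Cd68, and Laptm5 shows no such step.

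In grey matter, the lysosomal genes lay slightly below 0 with age, and none passed the test. Of 42 members tested, edgeR called 0 (0% of all 15255 genes in either direction) and 0 had an unadjusted p under 0.05, against 2.75% of all genes; DESeq2 called 0 members (0.0131% of all genes), and limma called 0 members and 0 genes. Above 0 lay 8 members (49.4% of all genes), with a median of -0.16; all 8 lipid genes were below 0 (median -0.18), as were 7 of 8 pump genes (median -0.26). Both old libraries were below both young ones in 10 members (17.7% of all genes) and above in 1, Idua (16.9% of all genes). This shift rested on 1 library: without the first 4-month grey matter library, 22 of 42 lay above 0 and the median was 0.0019. In that library red blood cell markers summed to 26091 CPM against 1197 in its partner, and neutrophil markers to 4604 against 2197. Between the ages, microglia markers summed to 13721 and 16467 CPM at 21 months against 20959 and 17161 at 4 months, with both old libraries lower in 8 of 12, and border-associated macrophage markers to 485 and 511 against 698 and 526, lower in 7 of 12. Pericyte and smooth muscle markers summed to 1097 and 1297 CPM against 151 and 930, higher in 7 of 10, and endothelial markers to 106 and 105 against 50.9 and 69.5, higher in 6 of 9 tested. The part of these lists was not tested. Gla had the lowest value, with 39.0 and 24.6 CPM at 21 months against 56.0 and 46.1 at 4 months, which do not overlap (-0.66 ± 0.30, edgeR adjusted p = 0.977). Ids, an iduronate sulfatase named after its value was seen, had the highest, 0.32 ± 0.25.

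**Figure D5:**
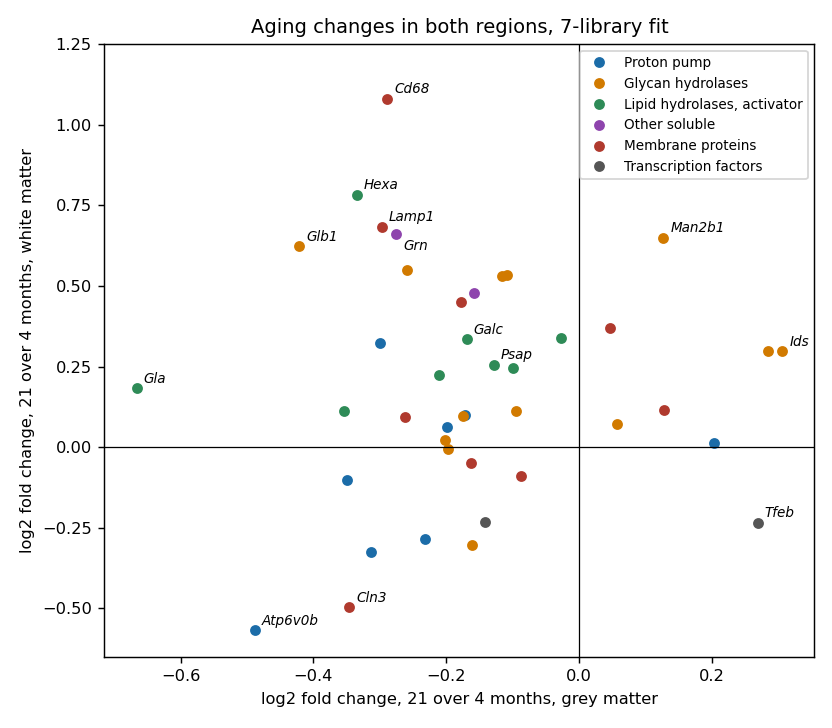
Log2 fold change of 21 over 4 months in white matter (vertical) against grey matter (horizontal) for 42 genes, from the fit of 7 libraries without the first 4-month white matter library, coloured by role. Atp6v0d2 is not drawn. Most hydrolase genes lie above 0 on the vertical axis and below 0 on the horizontal one, while membrane protein genes lie on both sides of 0 on each axis. Cd68 at 1.08 is the highest and Gla at -0.67 the furthest left.

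The age by region term tests whether the aging change of white matter differs from that of grey matter. None of the 43 members passed it: edgeR called 0 with all 8 libraries (0% of all 16237 genes in either direction), and 1 member, Cd68, had an unadjusted p under 0.05, against 2.8% of all genes; DESeq2 called 0 members (0.123% of all genes), and limma called 0 members and 0 genes. Of the 43, 30 lay above 0 (49.8% of all genes) with a median of 0.42, and without the library that stood apart 32 did (51.9% of all genes) with a median of 0.32. Cd68 gave 1.89 ± 0.77 with 8 libraries and 1.37 ± 0.47 with 7, and Grn gave 1.60 ± 0.90 and 0.94 ± 0.41 (edgeR adjusted p = 1.00 in each). Atp6v0d2 gave 5.50 ± 2.46 and 4.80 ± 2.61. The median by role was 0.61 for glycan hydrolases, 0.57 for lipid genes, 0.04 for the pump, 0.11 for membrane proteins and -0.13 for the transcription factors with 8 libraries, and 0.22, 0.45, 0.25, 0.32 and -0.30 with 7. With 2 libraries a group, a difference in aging of the lysosomal genes between the regions was not shown at this depth and replication.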

How the data were processed

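Polyadenylated RNA of CD11b-selected microglia was measured in 8 libraries, 2 for each region and age. The authors deposited estimated counts per gene; among values above 0, 15.9% to 17.8% per library differed from a whole number by more than 1e-06. The deposited normalised signal table, used in 1 alternative, holds the rounded counts multiplied by a constant for each library. The submitters' processing notes name Partek and DESeq2 with no role. No source used here gives the aligner, the genome build or whether strand was used.

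Counts were rounded. Genes were filtered with filterByExpr, scaled by TMM and tested with edgeR 4.0.16 (quasi-likelihood, robust) in R 4.3.3, on the 4 libraries of each comparison, and on all 8 for the age by region term, with Benjamini-Hochberg adjustment over all genes tested and a threshold of 0.05. Standard errors come from the F statistic. Each pair of regions or ages was fitted alone so that 1 outlying library of another group does not set the spread; the fits of all 8 and of 7 libraries are alternatives. Other alternatives were DESeq2 1.42.0, limma 3.58.1 on log2(normalised value + 1), RLE or total-count scaling, other low-count filters, the replicate number as a block, and leaving out each library. The scripts were tested on simulated data. An exact permutation test of 2 against 2 libraries cannot go below 0.333, so single genes were tested through these models only.

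The members, the lists, the design and the rule for named genes were chosen with earlier results of these data known. The rule names each member called in a main or joint fit, the member with the highest and the lowest fold change of each role at 21 months, and 13 further genes; Atp6v1a and others named for their values were added after the values were seen. Promoter windows come from RefSeq (GRCm38.p6), and exon overlaps from GENCODE M21.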

Additional observations from a re-analysis of the deposited data

How the results depend on the processing

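The count of called members at 21 months depended on the setting. It was 1 in the fit of the 4 libraries, 0 with all 8 libraries, 0 with 7 and 0 in limma. In DESeq2 it was 2 (Atp6v1a and Cd68), and with no low-count filter 5. DESeq2 gave Atp6v0d2 no adjusted p, so that value is not counted. The number of all genes called moved too, from 232 to 0 with all 8 libraries, 19 with 7, 313 in DESeq2, 0 in limma and 783 with no filter. The median of the members stayed above 0 in each alternative and between 0.20 and 0.33 when 1 library was left out, with 32 to 37 of 43 above 0. In those fits signs turned for genes near 0: Arsa ran from -0.13 to 0.24, Laptm5 from -0.17 to 0.071, Tfeb from -0.47 to 0.033, Neu1 from -0.43 to 0.15 and Atp6v0d1 from -0.054 to 0.36. Where 1 library is left out, the lone library is assumed to vary like the other group. The cause was not tested.

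In the other comparisons, leaving out 1 library gave 0 to 8 called members at 4 months, 0 to 23 with age in white matter, 0 to 3 with age in grey matter and 0 to 10 for the age by region term. The highest counts at 4 months, in white matter aging and for the age by region term came without the second 4-month white matter library, where only the library that stood apart represents its group, and that in grey matter came without the second 4-month library. Npc1 in white matter aging turned to 0.11 in the fit of 7 libraries, and it ran from -1.85 to 0.11 when 1 library was left out of the fit of 4, the latter without the first 4-month library. With total counts only, the median of all genes moved to 0.286 in white matter aging, -0.178 at 4 months, 0.122 in grey matter aging and 0.143 for the age by region term; that of the members in white matter aging was 0.56, and in grey matter aging 15 members lay above 0, or 22 without the first 4-month library (8 to 22 when any library is left out).

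Nothing in the labels says that equal replicate numbers share an animal, and the deviations of equal numbers from their group means correlated across genes at 0.0568 between the 21-month groups, 0.414 between the 4-month groups, -0.0259 between the ages in white matter and -0.0982 in grey matter. With the number as a replicate block, 3 members were called at 21 months (522 of all genes): Atp6v0d2, Atp6v1a (adjusted p = 0.0172) and Gla (adjusted p = 0.00435). The block moved no count of called members in the other comparisons.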
